A study of Homo sapiens with 12 samples.

Results

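Aminoacyl-tRNA synthetases were described here in SBC3, an established small cell lung cancer line grown as spheroids. The members are 35 genes taken from a list of symbols, 19 for cytosolic and 16 for mitochondrial enzymes, out of 60649 genes in the count tables. A suffix of 1, or the letters A and B for the 2 phenylalanine subunits, marks the cytosolic enzyme, and a suffix of 2 marks the mitochondrial one. GARS1 and KARS1 each make both forms and were counted as cytosolic. RNA was sequenced from 12 libraries of the same line, 3 in each of 4 groups: control, teriflunomide alone, lurbinectedin alone, and both drugs in combination. Teriflunomide blocks DHODH and with it the cell's own making of pyrimidine nucleotides. Lurbinectedin binds in the minor groove of DNA and blocks transcription by RNA polymerase II. The labels give no dose, exposure time or vehicle and do not say whether the 3 libraries of a group came from separate cultures, so p-values measure the spread between these libraries, which may be technical. All values come from 1 cell line.

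An aminoacyl-tRNA synthetase joins an amino acid to its tRNA, the step that fixes the meaning of the genetic code. The cytosolic enzymes supply cytosolic ribosomes and several of them are held in a multi-enzyme complex on the scaffold proteins AIMP1, AIMP2 and EEF1E1. The mitochondrial enzymes are encoded in the nucleus, are imported, and serve the translation of the respiratory chain subunits that mitochondrial DNA encodes. In many cells a shortage of amino acids activates the transcription factor ATF4, and genes of cytosolic synthetases are commonly listed among its targets.

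Promoter sequence from RefSeq (GRCh38.p14) was held for 30 of the 35 members, 16 cytosolic and 14 mitochondrial, in windows from 250 bases before to 50 bases after each annotated start. LARS1, VARS1, YARS1, AARS2 and VARS2 had no entry. The letters TGATGCAA or their reverse complement TTGCATCA, the element that ATF4 binds with a C/EBP partner, were present in 6 of the 16 cytosolic and 0 of the 14 mitochondrial members with a window, against 1.08% of 27305 genes with an entry. The 6 stretches of 30 bases are shown because ATF4 targets are described among the results, and no mitochondrial window held the element. They are written 5′ to 3′ on the strand of the gene with the element in capitals.
AARS1, chr16:70289675-70289704, minus strand: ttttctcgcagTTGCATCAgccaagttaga
CARS1, chr11:3057407-3057436, minus strand: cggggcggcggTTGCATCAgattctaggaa
IARS1, chr9:92293692-92293721, minus strand: ttttcagcgcgTTGCATCAcctccgtgcgc
MARS1, chr12:57488053-57488082, plus strand: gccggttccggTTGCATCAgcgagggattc
NARS1, chr18:57621804-57621833, minus strand: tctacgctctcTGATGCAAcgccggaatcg
TARS1, chr5:33440956-33440985, plus strand: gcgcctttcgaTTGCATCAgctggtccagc

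The element lies in the orientation TTGCATCA in AARS1, CARS1, IARS1, MARS1 and TARS1 and as TGATGCAA in NARS1. HARS1 and HARS2, the cytosolic and mitochondrial histidine enzymes, are neighbours transcribed away from each other. Between their RefSeq starts lie 84 bases, and the whole stretch is shown because both genes rose with lurbinectedin. It is written on the plus strand, where HARS2 is read to the right and HARS1 to the left, with the letters CCGGAAG or CTTCCGG, which ETS factors bind, in capitals at 2 places.
HARS1 and HARS2, chr5:140691371-140691454: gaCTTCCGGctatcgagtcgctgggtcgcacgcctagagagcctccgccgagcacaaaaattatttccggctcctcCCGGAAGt

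CCGGAAG on either strand was present in 16 of the 30 members (9 of 16 cytosolic, 7 of 14 mitochondrial), against 12.2% of all genes with an entry. Both motifs were kept from a longer search after results of these data were known, so their shares are descriptions and the matches are letters in a window, not shown binding sites.

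Total counts ran from 23206414 to 33222162 per library, and all 35 members passed the filter on low counts that left 16683 genes. Levels are given as CPM, the count of a gene scaled to the effective size of its library. A gene that rose or fell thus did so relative to the other transcripts of the library. The amount of RNA per cell is not given by these values, so a change in all transcripts together would not be seen. Fold changes are on the log2 scale, and a gene was called at an adjusted p under 0.05 in edgeR's quasi-likelihood test over all genes. Teriflunomide replicate 3 and combination replicate 2 stood apart: genes of the mitochondrial genome took 22.6% and 24.9% of their counts, against 8.42% and 8.43% in the other teriflunomide and 14.6% and 13.1% in the other combination libraries. That share was 6.26% to 7.17% in control and 13.8% to 17.0% with lurbinectedin. Without the genes of the mitochondrial genome in the fit, 2 members were called against control under teriflunomide, 29 under lurbinectedin and 27 under both drugs, in place of 2, 30 and 27. Over all genes the calls were then 999, 11974 and 11432 of 16738, in place of 1002, 11953 and 11418 of 16683.

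Among markers of small cell lung cancer, INSM1 had no count and NCAM1, POU2F3 and CHGA did not exceed 0.654 CPM, while SYP was at 14.1 to 36.2, NEUROD1 at 1.5 to 6.51 and YAP1 at 60.2 to 343 CPM. Of the epithelial markers KRT8 was at 196 to 444 CPM and EPCAM at most at 0.0638. Immune and endothelial markers summed to at most 0.447 and 0.545 CPM. Of 3 fibroblast markers COL1A1 and COL1A2 were present and DCN was at most 0.0485 CPM. Their sum was 519 to 549 CPM in control, 465 to 484 under teriflunomide, 186 to 220.2 under lurbinectedin and 198 to 227 under both drugs, and its part in the results was not tested.

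In control spheroids the cytosolic enzymes were the more abundant class per length of transcript. Their median was 34.5 CPM per kb of annotated exon, against 7.64 for the mitochondrial enzymes. EPRS1, the fused glutamate and proline enzyme of the complex, stood highest at 85.7 CPM per kb. It was followed by the mitochondrial isoleucine enzyme IARS2 at 77.3 and by the lysine enzyme KARS1 at 75.6, and no other mitochondrial gene exceeded 18.4, the value of YARS2. VARS2, at 0.0957 CPM per kb, and SARS2, at 0.806, stood lowest. Of their exon bases 63.0% and 48.2% are shared with other annotated genes, so their place in the order is uncertain. Some neighbours in this order were close, such as VARS1 and NARS1 at 38.7 and 38.5 CPM per kb, and the order of such neighbours was not tested. The exon length here is the union of all annotated transcripts, so the value per kb is low for genes with long annotated variants such as IARS1.

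Summed over each class, transcript levels were lower in every treated group than in control. The 19 cytosolic genes summed to 4162 ± 67.1 CPM in control (SD, n = 3), 3680 ± 117 under teriflunomide, 3475 ± 133 under lurbinectedin and 3069 ± 73.5 under both drugs. For the 16 mitochondrial genes the sums were 886 ± 1.64, 766 ± 55.8, 653 ± 13.1 and 576 ± 37.4 CPM in the same order. No treated library reached a control library in either class. The highest treated sums were 3813 CPM for the cytosolic and 809 CPM for the mitochondrial genes, both in teriflunomide replicate 1, against control minima of 4121 and 885 CPM. These sums weigh a few abundant genes most. They are relative to the other transcripts of the library and do not give the amount of RNA per cell. In bulk RNA a lower relative level in every cell and a change in the mix of cells cannot be told apart. Teriflunomide replicate 3, one of the 2 libraries that stood apart, had the lowest mitochondrial sum of its group at 703 CPM, and combination replicate 2 the lowest of its own at 541 CPM.

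**Figure D1:**
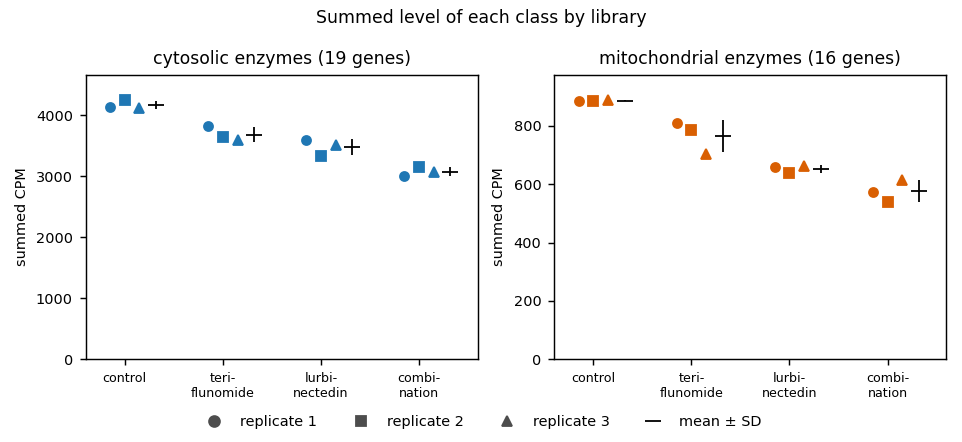
Summed CPM (linear axis from 0) of the 19 cytosolic and the 16 mitochondrial synthetase genes in each library, by treatment group. Coloured symbols are single libraries by replicate number and black marks give the mean ± SD. All 3 control libraries lie above all 9 treated libraries in both panels.

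Lurbinectedin changed most synthetase genes, in both directions. Of the 35 members 30 were called against control, 11 higher and 19 lower, where 71.6% of all genes tested were called, 36% higher and 35.7% lower. Among the cytosolic genes 5 rose and 11 fell of 19, and among the mitochondrial genes 6 rose and 8 fell of 16. Control and lurbinectedin libraries did not overlap for 12 members that were higher and 20 that were lower, against 42.4% and 40.8% of all genes. The median log2 fold change was -0.34 for the cytosolic and -0.31 for the mitochondrial genes, beside 0.051 for all genes tested. The difference between the 2 class medians was -0.035. The same difference taken within each lurbinectedin library, with control held at its mean, had a larger SD of 0.096. The mitochondrial genes spread further apart than the cytosolic ones, with an SD of 1.72 against 0.80 over their log2 fold changes. With library size as the only scaling the median of all genes was -0.18 in place of 0.051, and the calls among members split into 6 higher and 19 lower. FARSA, QARS1, TARS1, VARS2 and YARS2 were the 5 rises not called under that scaling, and the uncalled KARS1 and NARS1 then lay below 0. Of all calls 39.2% were then higher, in place of 50.2%.

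**Figure D2:**
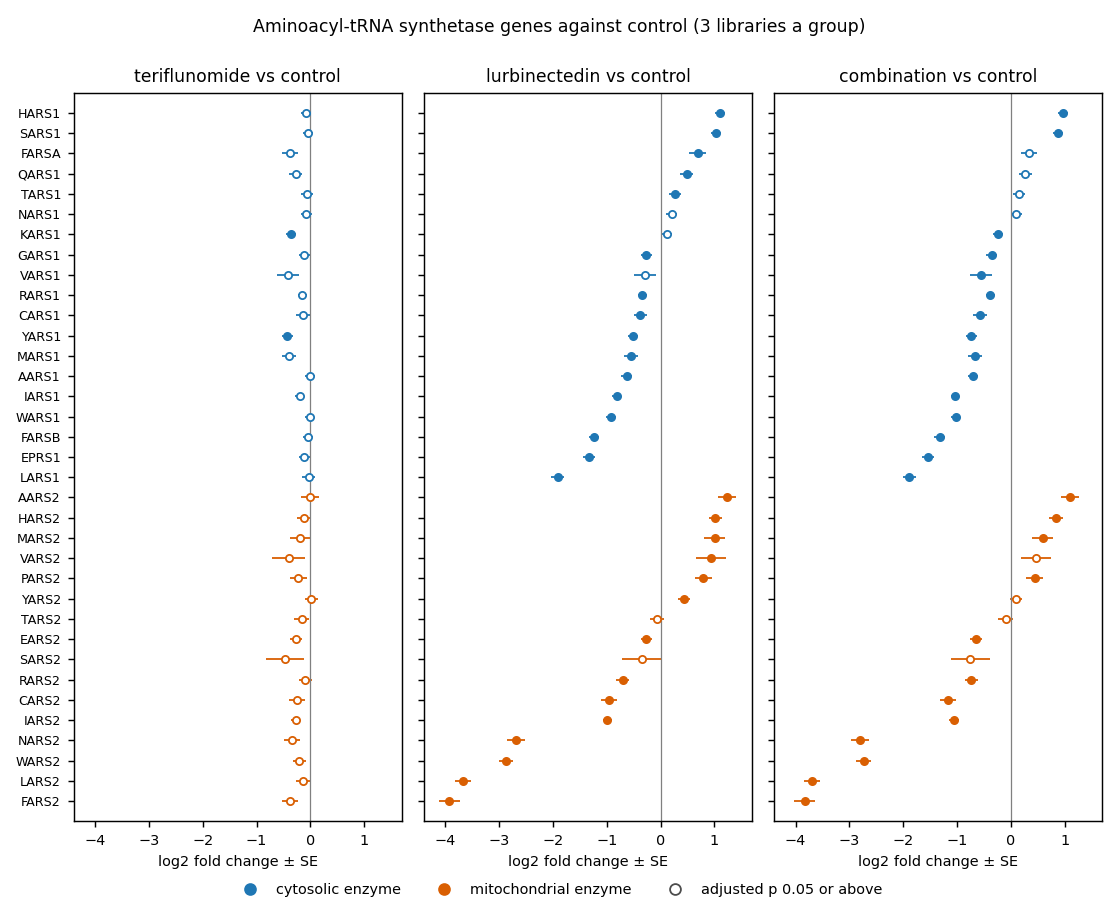
Log2 fold change ± SE of each of the 35 genes (rows) against control with teriflunomide, lurbinectedin and the combination (3 panels, same linear axis). Blue marks cytosolic and orange mitochondrial enzymes, and open circles have an adjusted p of 0.05 or above. Only YARS1 and KARS1 are filled with teriflunomide, while with lurbinectedin the genes run from FARS2 at -3.93 to AARS2 at 1.23.

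The cytosolic genes that fell furthest with lurbinectedin encode the leucine enzyme, one subunit of the phenylalanine enzyme and the glutamate-proline enzyme. LARS1, whose product also serves as a leucine sensor for mTORC1, was at 229, 232 and 228 CPM in control, 204, 201 and 268 under teriflunomide, 55.3, 63.5 and 63.9 under lurbinectedin and 66.6, 57.8 and 62.1 under both drugs. All 6 libraries with lurbinectedin lay below all 6 without it. The log2 fold change of LARS1 against control was -1.91 ± 0.12 (SE), adjusted p = 6.99e-09. EPRS1 was at 453, 473 and 443 CPM in control, 405, 391 and 471 under teriflunomide, 171, 176 and 195 under lurbinectedin and 174, 138 and 159 under both drugs. Its libraries with lurbinectedin were likewise all below those without it, and the log2 fold change was -1.34 ± 0.11 (SE), adjusted p = 7.95e-08.

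FARSB encodes the beta subunit of the cytosolic phenylalanine enzyme, which works as a tetramer of 2 alpha and 2 beta chains. It was at 128, 134 and 132 CPM in control, 121, 119.9 and 140.4 under teriflunomide, 57.0, 53.4 and 56.2 under lurbinectedin and 55.1, 51.0 and 51.1 under both drugs. The 2 groups with lurbinectedin did not overlap the other 2, and the log2 fold change was -1.24 ± 0.095 (SE), adjusted p = 4.16e-08. FARSA, the gene of the alpha subunit, was at 126, 126 and 125 CPM in control, 115, 103 and 69.5 under teriflunomide, 218, 188 and 200.3 under lurbinectedin and 142, 171 and 164 under both drugs. It rose with lurbinectedin, with all 3 libraries above every control library, and its log2 fold change was 0.69 ± 0.15 (SE), adjusted p = 9.66e-04. Genes of 2 subunits of 1 enzyme thus moved in opposite directions. The call of FARSA was lost with library size as the only scaling, where its value kept its sign.

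The log2 ratio of FARSA to FARSB was -0.064 ± 0.041 (SD, n = 3) in control, -0.43 ± 0.51 under teriflunomide, 1.86 ± 0.064 under lurbinectedin and 1.60 ± 0.20 under both drugs. As a linear ratio, the control libraries lay at 0.934 to 0.987. Lurbinectedin libraries lay at 3.51 to 3.82 and combination libraries at 2.58 to 3.35. In a two-sided exact permutation test the lurbinectedin and the combination ratios each gave p = 0.1 against control, the smallest that 3 against 3 libraries allow, and 0.3 after Benjamini-Hochberg adjustment over 6 ratio tests. With teriflunomide the exact p was 0.3 (adjusted 0.36), and replicate 3 alone had a ratio of 0.495 where the other 2 were at 0.862 and 0.956. These ratios were chosen for test after the values had been seen. FARSA lies at chr19:12922479-12934037 and FARSB at chr2:222566899-222656092 (hg38, both on the minus strand), with spans of 11.6 and 89.2 kb.

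Of the cytosolic genes that rose with lurbinectedin, HARS1 and the serine enzyme SARS1 changed most. SARS1 was at 172, 166 and 163 CPM in control, 164, 161 and 162 under teriflunomide, 364, 327 and 333 under lurbinectedin and 283, 346 and 290.1 under both drugs. Lurbinectedin libraries were all above those without it, with a log2 fold change of 1.03 ± 0.095 (SE), adjusted p = 2.69e-07. QARS1, the glutamine enzyme, rose by 0.49 ± 0.12 and TARS1, the threonine enzyme, by 0.27 ± 0.11 on the log2 scale (SE). The call of TARS1 was lost in 14 of 16 alternative analyses, which puts it at the edge of the threshold.

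The other cytosolic falls with lurbinectedin were moderate. WARS1, the tryptophan enzyme that interferon is known to induce, fell by 0.92 and IARS1, the isoleucine enzyme, fell by 0.82 on the log2 scale. AARS1 for alanine fell by 0.63, MARS1 for methionine fell by 0.55, YARS1 for tyrosine fell by 0.52, CARS1 for cysteine fell by 0.37, RARS1 for arginine fell by 0.34 and GARS1 for glycine fell by 0.27. MARS1 rests on counts whose strand use is not stated, and 13.3% of the exon bases of MARS1 are shared with other genes, among them DDIT3 on the opposite strand. For WARS1 the shared part is 10.6%. NARS1 (0.21 ± 0.10), KARS1 (0.12 ± 0.097) and VARS1 (-0.28 ± 0.21), the asparagine, lysine and valine enzymes, did not pass the test (log2 fold change ± SE).

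Cytosolic synthetases commonly listed as ATF4 targets did not all move in 1 direction. Of 11 such genes 2 rose (SARS1 and TARS1) and 8 fell with lurbinectedin, with a median log2 fold change of -0.52. Of the other 8 cytosolic genes 3 rose and 3 fell, with a median of -0.084. Among all genes tested 36% rose and 35.7% fell. Of the 6 genes whose promoter windows hold the TGATGCAA element shown above, TARS1 rose, AARS1, CARS1, IARS1 and MARS1 fell, and NARS1 was not called. Their median was -0.46, beside -0.075 for the 10 cytosolic genes with a window that lacks the element. These sets were not matched for genomic span. Across the 19 cytosolic genes Spearman's rho between span and log2 fold change was -0.83 with lurbinectedin. The part of span in these medians was not tested. ATF4 itself, read in the same libraries, was at 209.6, 205 and 216 CPM in control, 185, 183 and 130.5 under teriflunomide, 277, 252 and 270.0 under lurbinectedin and 242, 283 and 264 under both drugs. Its transcript rose with lurbinectedin at 0.34 ± 0.12 (SE), adjusted p = 0.0226 on the log2 scale.

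Among the 7 synthetases of the multi-enzyme complex, 1 rose with lurbinectedin (QARS1) and 5 fell (EPRS1, IARS1, LARS1, MARS1 and RARS1). Over all genes tested the shares were 36% higher and 35.7% lower. The median was -0.55, beside -0.28 for the 12 cytosolic genes outside the complex. The 5 genes that fell span 32.85 to 83.65 kb, and QARS1 spans 9.2 kb. The part of span in either median was not tested. Of the 3 scaffold genes, AIMP2 rose (0.61 ± 0.15) and EEF1E1 fell (-0.81 ± 0.15), while AIMP1, at -0.13 ± 0.14, was not called (log2 fold change ± SE). AIMP2 was at 45.1, 45.9 and 44.5 CPM in control and 78.1, 64.9 and 64.1 CPM with lurbinectedin, and EEF1E1 at 10.6, 10.8 and 10.1 and 6.11, 5.79 and 6.11 CPM. The 3 scaffold genes thus lay on both sides of 0, as the enzymes did.

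The deepest falls of all were in mitochondrial synthetases. LARS2, the mitochondrial leucine enzyme, was at 84.9, 84.7 and 82.7 CPM in control, 84.9, 81.0 and 63.7 under teriflunomide, 6.30, 7.27 and 6.22 under lurbinectedin and 7.06, 5.35 and 6.92 under both drugs. The 6 libraries with lurbinectedin formed a group far below the other 6, and the log2 fold change of LARS2 was -3.67 ± 0.15 (SE), adjusted p = 1.71e-10. FARS2, the mitochondrial phenylalanine enzyme, was at 11.1, 10.4 and 11.1 CPM in control, 8.97, 8.68 and 7.46 under teriflunomide, 0.921, 0.782 and 0.472 under lurbinectedin and 0.724, 0.717 and 0.830 under both drugs. These low levels rest on 13 to 26 counts per library with lurbinectedin and 219 to 373 without it. The log2 fold change of FARS2 was -3.93 ± 0.20 (SE), adjusted p = 8.62e-10.

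WARS2, the mitochondrial tryptophan enzyme, was at 23.3, 22.5 and 24.8 CPM in control, 20.5, 20.3 and 20.2 under teriflunomide, 3.05, 3.71 and 2.83 under lurbinectedin and 3.77, 3.67 and 3.16 under both drugs. It fell by 2.88 on the log2 scale (SE 0.14, adjusted p = 4.73e-10), with no overlap between libraries with and without lurbinectedin. NARS2, for asparagine, fell by 2.69 (SE 0.16), from 48.9 ± 2.41 to 7.55 ± 0.620 CPM (mean ± SD, n = 3). These 4 genes span chr6:5261044-5829192 (FARS2), chr3:45388561-45554726 (LARS2), chr11:78435968-78574874 (NARS2) and chr1:119031216-119140654 (WARS2) in hg38, which makes them the 4 longest members.

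IARS2, the most abundant mitochondrial member, was at 318, 323 and 318 CPM in control, 268, 252 and 273 under teriflunomide, 155, 158 and 169 under lurbinectedin and 161, 141 and 158 under both drugs. It fell with lurbinectedin at -0.99 ± 0.086 (SE), adjusted p = 1.59e-07 on the log2 scale, and groups with and without the drug did not overlap. CARS2 for cysteine fell by 0.97 and RARS2 for arginine fell by 0.70. EARS2, the glutamate enzyme, was at 85.3, 89.3 and 88.8 CPM in control, 81.0, 75.3 and 62.6 under teriflunomide, 76.2, 68.8 and 73.8 under lurbinectedin and 53.9, 57.0 and 56.8 under both drugs. Its fall against control was small, -0.27 ± 0.10 (SE), adjusted p = 0.0340, and was called in 7 of 16 alternative analyses, although the 2 groups did not overlap.

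The 6 mitochondrial genes that rose with lurbinectedin serve alanine, histidine, methionine, valine, proline and tyrosine. AARS2 was at 34.9, 31.9 and 37.8 CPM in control and 81.9, 82.3 and 81.7 CPM with lurbinectedin, a log2 fold change of 1.23 ± 0.17 (SE), adjusted p = 1.57e-05. MARS2, a gene without introns, was at 21.4, 22.6 and 20.9 CPM and 46.0, 39.8 and 44.3 CPM in these groups and rose by 1.0 (SE 0.20) on the log2 scale. PARS2 rose by 0.79 and YARS2 by 0.43. For YARS2 18.1% of the exon bases are shared with a gene on the opposite strand. VARS2 was called higher at 0.94 on 12 to 35 counts per library, and 63.0% of its exon bases are shared with another annotated gene on the same strand, so its value is uncertain. TARS2 (-0.073 ± 0.13) and SARS2 (-0.35 ± 0.36) were not called (log2 fold change ± SE). SARS2 has 19 to 94 counts per library and shares 48.2% of its exon bases with another gene.

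HARS1 and HARS2, which lie on either side of the stretch shown above, both rose. They span 18.5 and 7.88 kb, and of all genes shorter than 25 kb 52.9% rose with lurbinectedin. Of the 14 members of that span 9 rose. The part of the stretch between them in their rise was not tested. HARS1 was at 82.4, 81.4 and 83.1 CPM in control, 81.0, 77.7 and 73.6 under teriflunomide, 186, 175 and 171 under lurbinectedin and 147, 178 and 158 under both drugs. HARS2 was at 29.9, 31.0 and 29.7 CPM in control, 29.7, 31.3 and 22.2 under teriflunomide, 64.1, 57.5 and 61.7 under lurbinectedin and 50.5, 53.6 and 57.3 under both drugs. For both genes all libraries with lurbinectedin lay above all libraries without it. The log2 fold change with lurbinectedin was 1.11 ± 0.094 (SE), adjusted p = 1.24e-07, for HARS1 and 1.02 ± 0.13 (SE), adjusted p = 6.49e-06, for HARS2. HARS1 lies at chr5:140673035-140691537 on the minus strand and HARS2 at chr5:140691430-140699305 on the plus strand of hg38, and in the annotation of the count tables the 2 spans overlap by 108 bases.

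The log2 ratio of HARS1 to HARS2 was 1.45 ± 0.049 (SD, n = 3) in control and 1.54 ± 0.069 with lurbinectedin, 1.58 ± 0.14 with the combination and 1.5 ± 0.21 with teriflunomide. The differences from control were 0.091, 0.13 and 0.050, with two-sided exact permutation p of 0.2, 0.2 and 0.9 (adjusted over the 6 ratio tests 0.3, 0.3 and 0.9). The test cannot go below 0.1 and does not show that the ratios are equal.

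**Figure D3:**
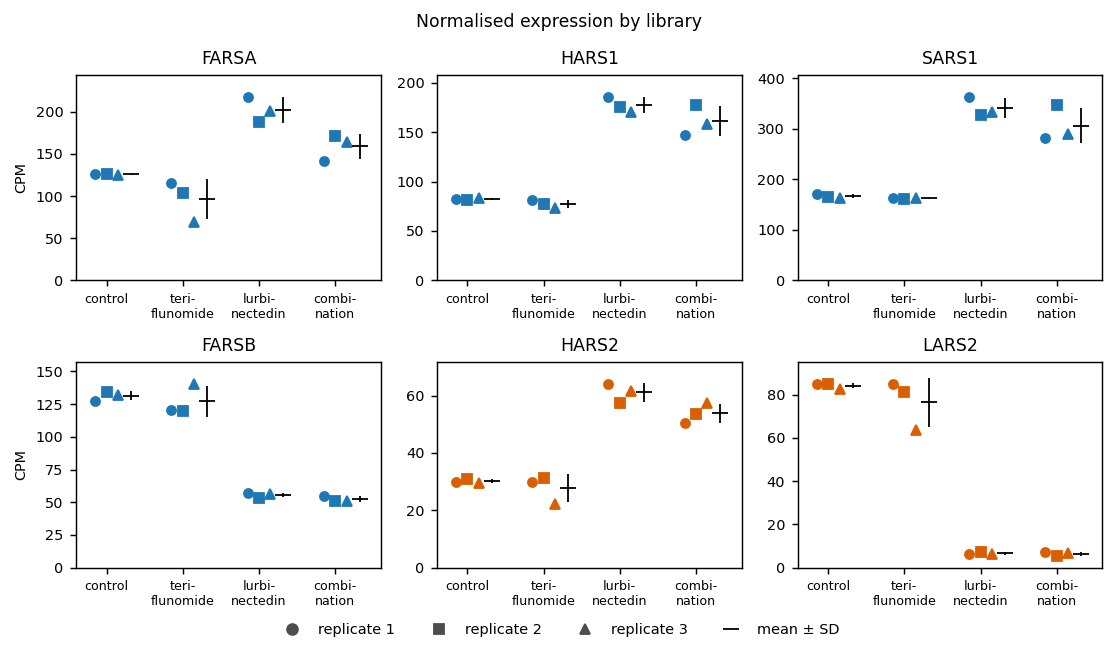
CPM (linear axes from 0, 1 scale per gene) of 6 members in every library, with mean ± SD beside each group. FARSA, HARS1, SARS1 and HARS2 are higher and FARSB and LARS2 lower in both groups with lurbinectedin than in control. Teriflunomide replicate 3 is the lowest of its group for FARSA, HARS1, HARS2 and LARS2 and the highest for FARSB.

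Fold change with lurbinectedin followed the genomic span of the gene. Across the 35 members Spearman's rho between span and log2 fold change was -0.89 with lurbinectedin and -0.88 with the combination, and 0.12 with teriflunomide. Over all 16651 nuclear genes tested rho was -0.57, -0.55 and 0.22. The members share libraries and controls, so rho is a description across genes and carries no p. It was -0.83 for the 19 cytosolic and -0.92 for the 16 mitochondrial genes with lurbinectedin. The median span was 37.7 kb for the cytosolic and 32.7 kb for the mitochondrial members, beside 24.7 kb over all genes.

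The 13 members longer than 50 kb all fell with lurbinectedin, 6 of them cytosolic and 7 mitochondrial, where 74.1% of all genes of that span fell and 9.5% rose. Of the 8 members of 25 to 50 kb, 2 rose and 6 fell, beside 34.4% and 31.3% of all genes. Of the 14 members shorter than 25 kb, 9 rose, 0 fell and 5 were not called, beside 52.9% and 13.4% of all genes. With the combination the same bins held 13 falls of 13, 0 rises and 6 falls of 8, and 6 rises and 2 falls of 14. Of all genes in these bins 71.4%, 29.6% and 13.1% fell and 10.2%, 33.6% and 49% rose. The span bins were set after the values had been seen.

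**Figure D4:**
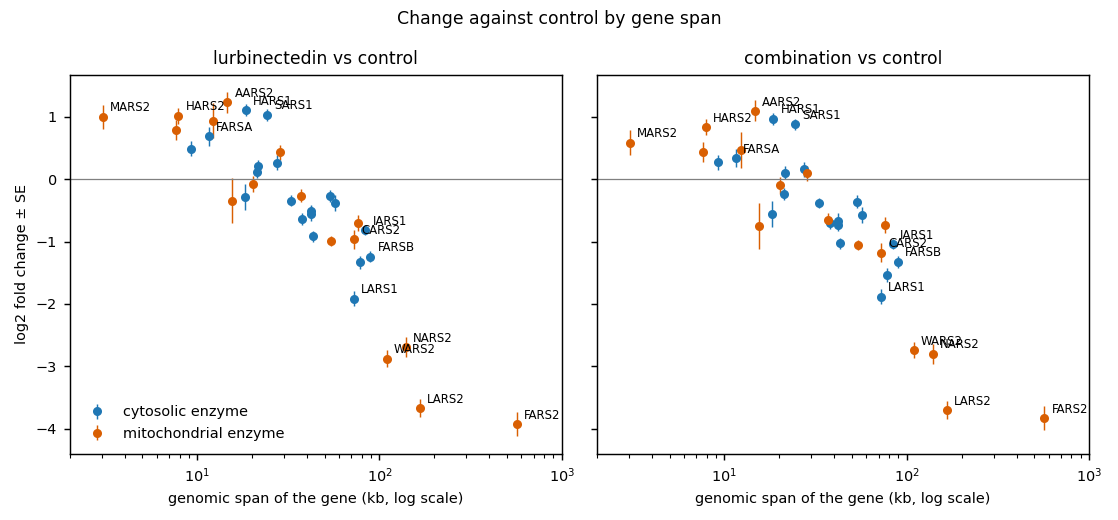
Log2 fold change ± SE against control (linear axis) by genomic span in kb (log axis) for the 35 members, with lurbinectedin on the left and the combination on the right. Blue marks cytosolic and orange mitochondrial enzymes. Every member longer than 50 kb lies below 0 in both panels, with FARS2, the longest, at -3.93 and -3.83.

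For 13 amino acids a cytosolic gene can be set beside a mitochondrial gene, leaving out phenylalanine with its 2 cytosolic subunits. The longer gene of the pair had the lower log2 fold change in 9 of 13 pairs with lurbinectedin and in the same number with the combination, and in 7 with teriflunomide. AARS1 and AARS2 illustrate the sign change: -0.63 and 1.23 with spans of 37.7 and 14.6 kb. MARS1 and MARS2, at -0.55 and 1.0, have spans of 42.1 and 3.03 kb. For asparagine it is the mitochondrial gene that is longer, and NARS1 and NARS2 were at 0.21 and -2.69 with 21.6 and 139 kb. The exceptions with lurbinectedin were the histidine, isoleucine, serine and threonine pairs, whose longer cytosolic gene had the higher value. Within a pair both genes had the same sign in 6 of 13 cases with lurbinectedin and in 12 of 13 with teriflunomide.

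With teriflunomide alone nearly all values were below control by small amounts, and YARS1 and KARS1, both cytosolic, fell. These were the 2 members called, where 6.01% of all genes tested were called, 3.88% higher and 2.13% lower. Of the 35 log2 fold changes 34 were below 0, beside 7706 of 16683 over all genes. Medians were -0.12 for the cytosolic and -0.22 for the mitochondrial genes beside 0.032 for all genes. At an unadjusted p under 0.05 there were 10 members, beside 24.8% of all genes. Libraries did not overlap control for 15 members that were lower and 0 that were higher, against 16.7% and 20.1% of all genes.

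YARS1, the tyrosine enzyme, was at 286, 308 and 297 CPM in control, 241, 232 and 189.6 under teriflunomide, 215, 197 and 211 under lurbinectedin and 173, 182 and 181 under both drugs. Its teriflunomide libraries all lay below control, and the log2 fold change was -0.43 ± 0.098 (SE), adjusted p = 0.0242. KARS1, the lysine enzyme of both compartments, was at 302, 309 and 309 CPM in control, 258, 249 and 211 under teriflunomide, 360.3, 305 and 331 under lurbinectedin and 251, 272 and 258 under both drugs. Its teriflunomide libraries too lay below control, with a log2 fold change of -0.36 ± 0.097 (SE), adjusted p = 0.0468. In both genes replicate 3, which stood apart, was the lowest, and both calls were lost when any 1 control library was left out.

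MARS1 was at 193, 186 and 190.2 CPM in control, 159.6, 156 and 117 under teriflunomide, 129.5, 126 and 133 under lurbinectedin and 112, 108 and 139 under both drugs. Teriflunomide libraries lay below control for MARS1, IARS2, EARS2 and FARS2, but none passed the test, with adjusted p of 0.0764, 0.0729, 0.139 and 0.147 and log2 fold changes of -0.40, -0.27, -0.27 and -0.38. Without teriflunomide replicate 3 the median of the mitochondrial genes was -0.11 in place of -0.22, and that of the cytosolic genes was -0.16. With teriflunomide replicate 3 and combination replicate 2 both left out, a choice made after seeing the data, 7 members were called lower (YARS1, KARS1, IARS1, MARS1, IARS2, NARS2 and RARS2), beside 7.07% of all genes.

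With the combination 6 members rose and 21 fell against control, the same 3 control libraries that served lurbinectedin alone. The 27 calls stand beside 68.4% of all genes, 34.1% higher and 34.4% lower. Of the cytosolic genes 2 rose (HARS1 and SARS1) and 13 fell, and of the mitochondrial genes 4 rose (AARS2, HARS2, MARS2 and PARS2) and 8 fell. Libraries did not overlap control for 9 members that were higher and 21 that were lower, against 38.7% and 38.5% of all genes. The median log2 fold change was -0.55 for the cytosolic and -0.69 for the mitochondrial genes, beside 0.041 for all genes. Their difference of 0.14 ran from 0.079 to 0.17 with 1 library left out and was not tested. The SD between replicates, 0.024, is over the 3 combination libraries alone and leaves out spread between control libraries. It belongs to medians taken within each library, not to the 0.14. Relative to the control mean these medians were -0.62, -0.60 and -0.45 for the cytosolic and -0.71, -0.67 and -0.49 for the mitochondrial genes. With library size as the only scaling the median of all genes was -0.13, and 4 members were called higher and 21 lower. Of the 10454 genes called under that scaling 41% were higher, in place of 49.8%. Without the 2 libraries that stood apart, 8 members were called higher and 22 lower, beside 37.2% and 37% of all genes.

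LARS1, EPRS1 and FARSB had the smallest adjusted p of the cytosolic and LARS2, WARS2 and FARS2 of the mitochondrial genes. The log2 fold change with the combination was -1.89 ± 0.12 for LARS1, -1.54 ± 0.11 for EPRS1, -1.32 ± 0.095 for FARSB, -3.70 ± 0.15 for LARS2, -2.74 ± 0.13 for WARS2 and -3.83 ± 0.19 for FARS2 (SE). FARSA, QARS1, TARS1, VARS2 and YARS2 were called higher with lurbinectedin but not with the combination, where their values were 0.34, 0.27, 0.16, 0.47 and 0.094. KARS1 and VARS1 were called lower with the combination (-0.24 and -0.55) but not with lurbinectedin. With the combination KARS1 was called in 7 and VARS1 in 10 of 17 alternatives, and both calls were lost when any 1 control library was left out. The rise of PARS2 was called in 11 of 17. The direct comparison of the 2 groups called none of these 7 genes (edgeR, adjusted p of 0.154 or above).

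The direct comparison of the combination with lurbinectedin called 0 of the 35 members and 0% of all genes in edgeR. At an unadjusted p under 0.05 there were 7 members (KARS1, EARS2, YARS2, IARS1, FARSA, PARS2 and YARS1, all lower), beside 15.6% of all genes. DESeq2 called 2 members and 584 of 16683 genes. With no expression filter edgeR called 612 of 35577 genes, and with only the compared groups in the fit 94 of 15370. In all 32 of 35 log2 differences were below 0, beside 7788 of 16683 over all genes. Medians were -0.14 for the cytosolic and -0.16 for the mitochondrial genes beside 0.025 for all genes. Libraries did not overlap for 10 members that were lower and 0 that were higher with the combination, against 12.6% and 11.1% of all genes. The 2 smallest adjusted p, both 0.154, belonged to KARS1 (-0.35 ± 0.097) and EARS2 (-0.38 ± 0.11). KARS1 was at 360.3, 305 and 331 CPM with lurbinectedin and at 251, 272 and 258 CPM with the combination.

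The count of calls differed without the libraries that stood apart. With teriflunomide replicate 3 and combination replicate 2 both left out, 10 members were called lower with the combination than with lurbinectedin and 0 higher, beside 10.1% of all genes called lower. They were the cytosolic FARSA, HARS1, KARS1, SARS1, TARS1 and YARS1 and the mitochondrial EARS2, MARS2, PARS2 and YARS2. The log2 difference was then -0.40 for FARSA, -0.38 for KARS1, -0.39 for EARS2, -0.36 for YARS2 and -0.35 for MARS2. Leaving out combination replicate 2 or any other 1 library of the 2 groups gave 0 calls among the members, while over all genes 259 of 17043 were called without combination replicate 2. With both out, a group of 2 combination libraries was compared with 3 lurbinectedin libraries, on a spread estimated over all groups.

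Against teriflunomide, the combination had 9 members higher and 18 lower, beside 70.9% of all genes called, 35.2% higher and 35.8% lower. The 9 were FARSA, HARS1, QARS1, SARS1, AARS2, HARS2, MARS2, PARS2 and VARS2. Libraries did not overlap for 9 members that were higher and 17 that were lower, against 35.1% and 35.6% of all genes. The log2 difference was -3.57 ± 0.15 for LARS2, -3.45 ± 0.19 for FARS2, -1.85 ± 0.12 for LARS1 and 1.06 ± 0.094 for HARS1 (SE). This comparison gives the effect of lurbinectedin in the presence of teriflunomide and shares no library with that of lurbinectedin against control. All 27 of its calls were also called with lurbinectedin alone in the same direction, which makes 100% of the 27 and 90% of the 30. In all 34 of 35 values had the same sign, and TARS2, called in neither, was the exception. Of all genes 71.6% were called with lurbinectedin alone and 70.9% here. Their agreement over all genes is not given, so this overlap cannot be read as a trait of the synthetases. MARS1, TARS1 and YARS2 were called with lurbinectedin alone and not here.

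The interaction, the effect of teriflunomide with lurbinectedin minus its effect without, was called in 0 of 35 members and in 0.258% of all genes in edgeR. YARS2, at -0.35 ± 0.16, was the 1 member with an unadjusted p under 0.05, beside 10.3% of all genes. DESeq2 called 0 members and 258 of 16683 genes. Medians were -0.021 for the cytosolic and 0.055 for the mitochondrial genes, beside 0.016 for all genes, which was 0.16 with library size as the only scaling. With teriflunomide replicate 3 left out 1 member was called, beside 616 of 17072 genes. Without both libraries that stood apart there were 3, namely IARS2 (0.29) and, with negative values, MARS2 (-0.42) and YARS2 (-0.49), beside 10.9% of all genes.

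GARS1, which like KARS1 supplies both compartments, was at 193, 204 and 190.4 CPM in control, 178, 165 and 198 under teriflunomide, 169, 155 and 164 under lurbinectedin and 145, 170.3 and 142 under both drugs. Its lurbinectedin libraries all lay below control, with a log2 fold change of -0.27 ± 0.10 (SE), adjusted p = 0.0277, and with the combination the value was -0.36 ± 0.10 (SE). The call with lurbinectedin was kept in 8 of 16 alternatives. The mitochondrial class has no gene of its own for glycine, lysine or glutamine, and mitochondrial glutaminyl-tRNA is made from a glutamate charged by EARS2 through the GatCAB amidotransferase.

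Genes that act with the synthetases also divided by direction. Of the 4 mitochondrial helpers of tRNA charging, GATC and MTFMT rose and GATB and QRSL1 fell with lurbinectedin. The shares over all genes were 36% higher and 35.7% lower. GATB, a subunit of the amidotransferase, was at 26.9, 25.1 and 25.5 CPM in control and 2.76, 3.44 and 3.71 CPM with lurbinectedin, a log2 fold change of -2.96 ± 0.15 (SE), adjusted p = 8.40e-10. GATC, another subunit, was at 99.7, 99.0 and 99.4 and 178, 164 and 165 CPM and had 0.77 ± 0.090 (SE), adjusted p = 3.44e-06. Subunits of 1 enzyme again lay on both sides of 0.

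The cytosolic elongation factors, which carry charged tRNA to the ribosome and move it along, rose with lurbinectedin in 4 of 4 genes tested. EEF1G, also on this list of 5, had 0 counts and was not tested. Beside the lists in this paragraph, 36% of all genes tested rose and 35.7% fell with lurbinectedin. EEF2 was at 2949, 2961 and 3005 CPM in control and 7334, 6371 and 6769 CPM with lurbinectedin (1.20 ± 0.11 (SE), adjusted p = 4.06e-07), and EEF1D was at 280.1, 273 and 273 and 434, 437 and 416 CPM (0.64 ± 0.12 (SE), adjusted p = 2.04e-04). With teriflunomide EEF1D was the 1 cytosolic elongation factor called, lower at -0.47 ± 0.12, beside 2.13% of all genes called lower. Of the 4 mitochondrial elongation factors TUFM rose and GFM1 and GFM2 fell, with GFM1 at -0.91 ± 0.10 and GFM2 at -0.49 ± 0.088. Of the 6 amino acid response genes, DDIT3, ATF4, ASNS and CHAC1 rose and TRIB3 fell with lurbinectedin, and EIF2AK4 was not called. DDIT3, whose exons overlap MARS1, was at 5.76, 6.25 and 6.0 CPM in control and 22.9, 20.8 and 24.0 CPM with lurbinectedin (1.91 ± 0.14 (SE), adjusted p = 2.05e-08). ASNS had 2.41 ± 0.32 (SE), adjusted p = 1.37e-05, on levels of 0.369, 0.301 and 0.149 CPM in control and 1.65, 1.56 and 1.16 CPM with lurbinectedin, and 49.3% of its exon bases are shared with other genes.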

How the data were processed

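The labels' protocols name the RNeasy Plus Mini kit for RNA from SBC3 spheroids and the KAPA mRNA HyperPrep kit for the libraries. The authors deposited raw read counts per gene, 1 table per library. Per the submitters' processing notes the tools were fastp 0.23.2, STAR 2.7.9, Subread and featureCounts on hg38. The annotation release, strand use and treatment of multi-mapping reads are not given in the sources used here. Gene identifiers were matched to symbols for 60463 of 60649 genes (99.7%). Counts were fitted with edgeR 4.0.16 in R 4.3.3 across all genes (filterByExpr, TMM, quasi-likelihood with robust dispersions, 1 mean per group, all 12 libraries), which left 16683 genes with a biological coefficient of variation of 14.5%. P-values were adjusted by Benjamini-Hochberg over all genes in each of 6 contrasts. Standard errors were derived from the F statistic. Spans and exon overlaps came from the annotation columns of the tables.

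Members and lists were chosen with earlier results of these data known. Values in every library are given for the 3 members of each class with the smallest adjusted p in each comparison with control, for GARS1 and KARS1 and for HARS1 and HARS2. Of each related list at most 2 genes with the smallest adjusted p with lurbinectedin were to be given with values. Library values of SARS1, FARSA, AARS2, MARS2 and ATF4, the span bins, the pairs and the ratio tests were added after values were seen. Alternatives were other scalings and filters, a replicate block, only the groups compared, a stricter threshold of 0.01, TREAT with a fold of 1.5, DESeq2 1.42.0, and each library left out. Leaving out teriflunomide replicate 3 and combination replicate 2 together was added after seeing the data.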

Additional observations from a re-analysis of the deposited data

How the results depend on the processing

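Calls with teriflunomide depended on many of the choices. In place of 2 members called against control there were 0 with library size as the only scaling, 0 with the replicate block, 0 with only the compared groups in the fit, 0 at an adjusted p under 0.01 and 0 with TREAT against 1.5-fold, but 4 with no expression filter and 5 with DESeq2. Calls over all genes moved as well: in place of 1002 of 16683 there were 265, 415, 283 (of 15502), 230 and 33 in the first 5 of these settings, 1800 of 35577 with no expression filter and 1907 with DESeq2. YARS1 and KARS1 stayed the only members called with DESeq2's scaling in edgeR and without the mitochondrial genome genes. The same held with a filter of at least 1 CPM in 3 libraries. In these settings 977 of 16683, 999 of 16738 and 1057 of 14080 genes were called. Leaving out 1 library gave 0 to 3 members, and leaving out teriflunomide replicate 3 with combination replicate 2 gave 7. Over all genes these choices gave 216 to 1555 and 2757 calls. TREAT left 16 of 30 calls with lurbinectedin, 15 of 27 with the combination and 15 of 27 for the combination against teriflunomide. Over all genes it called 8028, 7267 and 7854 of 16683, in place of 11953, 11418 and 11835. With 1 library left out the member counts were 26 to 29, 23 to 26 and 23 to 31. The counts over all genes were then 11118 to 11285, 10559 to 10996 and 11404 to 12497. For the combination against lurbinectedin, leaving out 1 library gave 0, DESeq2 gave 2 and leaving out the 2 libraries named above gave 10. The interaction gave 0 to 1 with 1 library left out and 3 without both.

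The difference between the cytosolic and mitochondrial medians changed by more than its spread between replicates only when libraries were left out. That spread was taken over the libraries of 1 group, with the other groups held at their means. The difference ran from -0.10 to 0.069 with lurbinectedin and from 0.079 to 0.17 with the combination (0.17 without both libraries). It ran from -0.10 to 0.22 for the combination against teriflunomide and from -0.16 to 0.12 for the interaction. Against control, the sign of 9 members under teriflunomide, 2 under lurbinectedin and 3 under both drugs reversed in at least 1 alternative, and 0 of these were called. With 1 library left out LARS1 under teriflunomide ran from -0.18 to 0.043 and HARS2 from -0.22 to 0.013 (0.014 without both libraries), and KARS1 with lurbinectedin was -0.12 with library size only. The cause was not tested. Replicate numbers did not pair the libraries: 1 of 18 correlations between same-numbered deviations was above 0.1 (range -0.40 to 0.14), and the best match carried the same number in 6 of 36 cases. The replicate block left 27 members called with lurbinectedin and 26 with the combination, beside 11591 and 11044 of 16683 genes. FARS2, SARS2 and VARS2 are limited by depth.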

Other observations

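EEF1G, a subunit of the elongation factor complex that reloads EEF1A1, had 0 counts in all 12 libraries. Of its annotated exon bases 99.7% are shared with other genes. TSFM, a mitochondrial elongation factor, shares 71.2% of its exon bases and was at 0.616 to 1.69 CPM. TSFM was tested and not called in any of the 3 comparisons with control.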
